A study of Mus musculus with 2 samples.

Results

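The clustered protocadherins were examined for CpG methylation in mouse myotubes, multinucleate muscle cells formed in culture from C3H myoblasts. The members were the 58 genes, of 55450 in the annotation, whose symbols begin with Pcdha, Pcdhb or Pcdhg. They make up an alpha cluster of 14 genes, a beta cluster of 22 genes and a gamma cluster of 22 genes on chromosome 18. In the GRCm38 assembly the alpha cluster spanned chr18:36930285-37187661, the beta cluster chr18:37264938-37524479 and the gamma cluster chr18:37661793-37841873. Within the first exons of these genes and within 1000 bases of their transcription starts, 1307 CpG cytosines of 1850635 in the genome could be compared. Each had at least 5 reads in each library and lay outside CCGG and TCGA, the sites cut by MspI and TaqI. By cluster there were 275 cytosines in alpha, 303 in beta and 729 in gamma.

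Both groups consisted of the same kind of cells, grown as myoblasts, differentiated in low-serum medium and transfected as myotubes. The siH19 group received a short interfering RNA that targets H19, a long non-coding RNA, and the siCon group a control short interfering RNA, and genomic DNA was taken 48 h later. Reduced representation bisulfite sequencing was performed on 1 library per group. There were no replicates, so that no value had an error between cultures, and a test of reads compared these libraries and not the conditions. The siCon library held 104999613 reads summed over 5453019 cytosines and the siH19 library 106372792 reads over 5266846 cytosines, with median depths of 12 and 13. Those medians take in every cytosine a library held. Among the cytosines that could be compared, the median depths were 21 and 18 for the protocadherins. Over the whole genome they were 24 and 24, so that the members were read less deeply. As a check of the cells, promoter levels of muscle genes were read. Des, encoding desmin, was at 3.89% in siCon and 4.19% in siH19, and Ckm, encoding muscle creatine kinase, was at 3.33% and 3.89%. The skeletal actin gene Acta1 was at 11.7% and 11.8%. The myogenic regulator genes stood higher, with Myod1 at 37.7% and 38.5%, Myf5 at 61.2% and 52.5% and Myog at 80.5% and 81.2%. Myf6 had no cytosine to compare. Methylation levels do not measure expression, and the level of H19 RNA was not analysed here.

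Clustered protocadherins are cell-surface adhesion proteins of the cadherin superfamily, best known in neurons, where different combinations of isoforms on different cells allow a cell to tell its own branches from those of others. Each variable first exon has its own promoter and codes for the extracellular, transmembrane and first cytoplasmic parts of 1 isoform. In the alpha and gamma clusters it is spliced to a shared set of constant exons, whereas beta genes have no constant exons. Most variable exons are alternate genes, of which a neuron activates a small and variable selection, while the C-type genes at the downstream ends of the alpha and gamma clusters are used far more evenly. Alternate promoters carry binding sites of the insulator protein CTCF, and methylation there is known to hinder CTCF binding. The annotation followed this structure. All 22 beta genes had their whole coding sequence in the first exon, whereas 456 coding bases lay outside it in every alpha gene and 372 in every gamma gene. First exons spanned 2346 to 3028 bases in alpha, 2588 to 8695 in beta and 2499 to 2961 in gamma.

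Most of the protocadherin genes were heavily methylated in both libraries, and 1 C-type gene, Pcdhgc3, was nearly free of methylation outside restriction sites. A methylation level below is the mean of the levels of a region's cytosines. Regions with at least 5 cytosines were compared. Among first exons, 47 of 58 reached this number, 7 had 1 to 4 cytosines and 4 had none. Among promoter windows, 1000 bases either side of the start, 29 reached it, 10 had 1 to 4 and 19 had none. The median first exon stood at 73.0% in siCon and 72.8% in siH19. Over the 13136 first exons of the genome that could be compared, the median in siCon was 1.43%, and 12.3% of them were at 50% or more. First exons of the genome were not matched to those of the members in length or CpG density. Of the protocadherin first exons 38 of 47 were at 50% or more. The promoter median was 65.5% for the members and 4.52% for the 19572 promoters of the genome, and 18 of 29 member promoters were at 50% or more, against 16.1% of all promoters. Only 1 of 53 cytosines in alpha alternate promoter windows and 8 of 291 in gamma alternate ones lay before the start. These windows thus read almost only sequence after the start, and promoters of the genome were not matched for this.

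**Figure D1:**
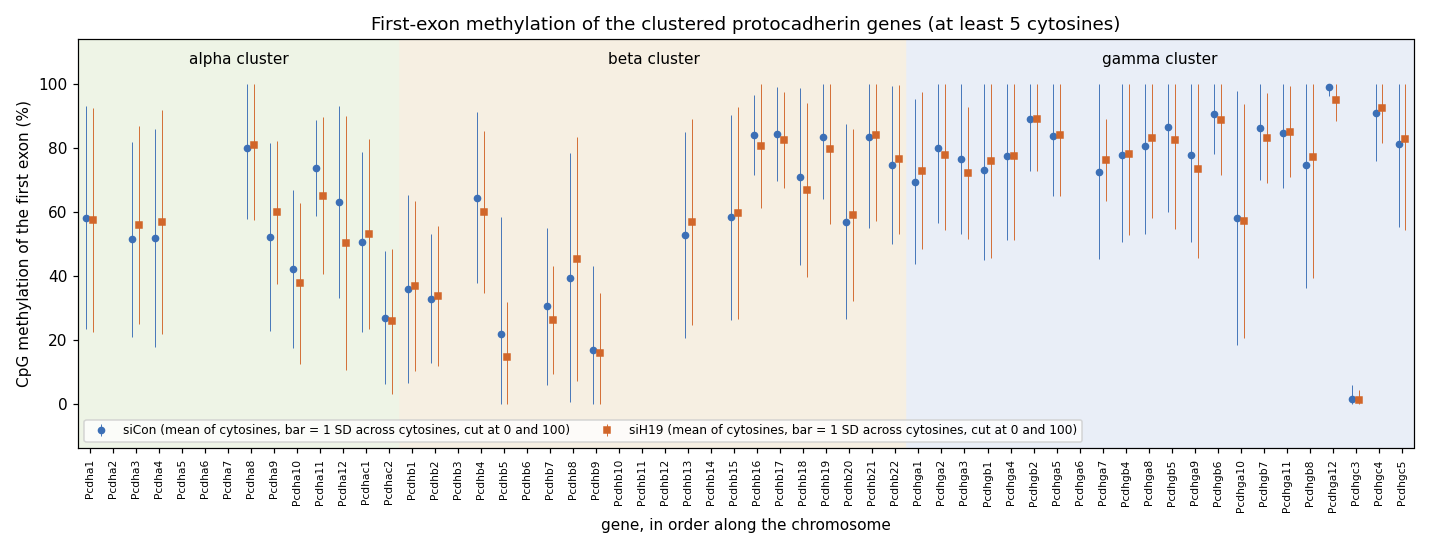
Mean CpG methylation (%) of the first exons with at least 5 cytosines, for genes in order along the chromosome, in siCon (circles) and siH19 (squares); bars are 1 SD across the cytosines of a gene, cut at 0 and 100. Gamma alternate genes lay between 57.9% and 98.8% in siCon, beta genes before Pcdhb10 between 16.7% and 64.3% and those after it between 52.7% and 84.3%, and Pcdhgc3 was at 1.43%.

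The 3 clusters had different mean levels, given here without a test since genes and cytosines are not replicates. Alpha alternate first exons averaged 54.1% in siCon and 55.5% in siH19 over 137 cytosines, with SDs across cytosines of 31.7 and 31.9 points. Beta first exons averaged 59.1% and 58.5% over 291 cytosines, with SDs of 33.7 and 33. Gamma alternate first exons averaged 80.5% and 80% over 553 cytosines, with SDs of 24.9 and 24.1. All 18 gamma alternate first exons were at 50% or more in siCon, as were 7 of 8 in alpha and 10 of 16 in beta. The cytosines themselves were spread differently. In the gamma alternate genes 64.9% of cytosines were above 80% in siCon and 4.99% below 20%. In the alpha alternate genes 50.7% lay between 20% and 80%, and in beta the shares below 20%, between, and above 80% were 21.5%, 40.6% and 38.0%. Over all 1307 cytosines, the levels in the libraries had a Pearson correlation of 0.933. These cytosines share fragments, reads and neighbours, and the coefficient describes them only.

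The C-type genes ranged in siCon from 1.43% to 91.0% in their first exons. Pcdhgc3, whose first exon lies at chr18:37806410-37808977, had 102 cytosines in its promoter window with 3336 reads in siCon and 2542 in siH19. Their mean level was 0.741% in siCon and 1.17% in siH19. Summed over reads, the level was 0.540% (Wilson 95% interval 0.342 to 0.851) and 0.865% (0.572 to 1.31). Intervals cover counting error only, since reads copied from 1 molecule could not be told apart. In its first exon the mean level was 1.43% and 1.03% over 97 cytosines. With the cytosines of restriction sites kept, some of which lie where bases are filled in during library preparation, it was 11.6% in siCon. Of 123 cytosines in either region, 86 were at 0 in both libraries, 4 in siCon and 3 in siH19 were above 10%, and the highest was at 28.6% and 21.1%. The low level ran from the region before the start to the end of the covered exon. In the 500 bases before the start it was 0.444% in siCon and 3.21% in siH19 over 26 cytosines with 746 and 657 reads, a difference that was not tested on its own. The siH19 levels of 7.69% to 20% there came from plus-strand cytosines with 5 to 13 reads. Cytosines nearer the start, with 29 to 76 reads in siH19, stood at 0 to 2.63%. Between 1000 and 1500 bases after the start the mean level was 4.09% and 3.49%. Of all 58 first exons, that of Pcdhgc3 was the densest in CpG, with 5.80 per 100 bases.

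The genes on both sides of Pcdhgc3 were methylated. Pcdhga12, the last alternate gene before it, had a first-exon level of 98.8% in siCon and 95% in siH19 over 12 cytosines. Pcdhgc4, the next gene after it, was at 91.0% and 92.3% over 28 cytosines, all of them within 1000 bases of the start. Pcdhgc5, the last gene of the cluster, was at 81.1% and 82.6% in its first exon over 17 cytosines, 14 of which lay 1000 bases or more after the start. The C-type genes of the gamma cluster therefore had both the lowest and nearly the highest levels of the cluster.

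Pcdhac1 and Pcdhac2, the C-type genes of the alpha cluster, were in between and changed level with distance from the start. Pcdhac1 was at 6.67% in siCon and 9.78% in siH19 in the 500 bases before the start, over 6 cytosines with 313 and 219 reads. In the first 500 bases after the start it was at 48.0% and 49.5% over 32 cytosines, and its promoter window as a whole was at 45.3% and 47.3%. Pcdhac2 had no covered cytosine before the start. Its level was 14.4% and 15.8% in the first 500 bases over 34 cytosines, 33.7% and 31.0% in the next 500 over 25, and 42.0% and 39.1% in the 500 after those over 14. Over the whole first exon Pcdhac2 was at 26.9% and 25.7%, the lowest level of the alpha cluster among exons with at least 5 cytosines, and its promoter window was at 22.6% and 22.2%.

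**Figure D2:**
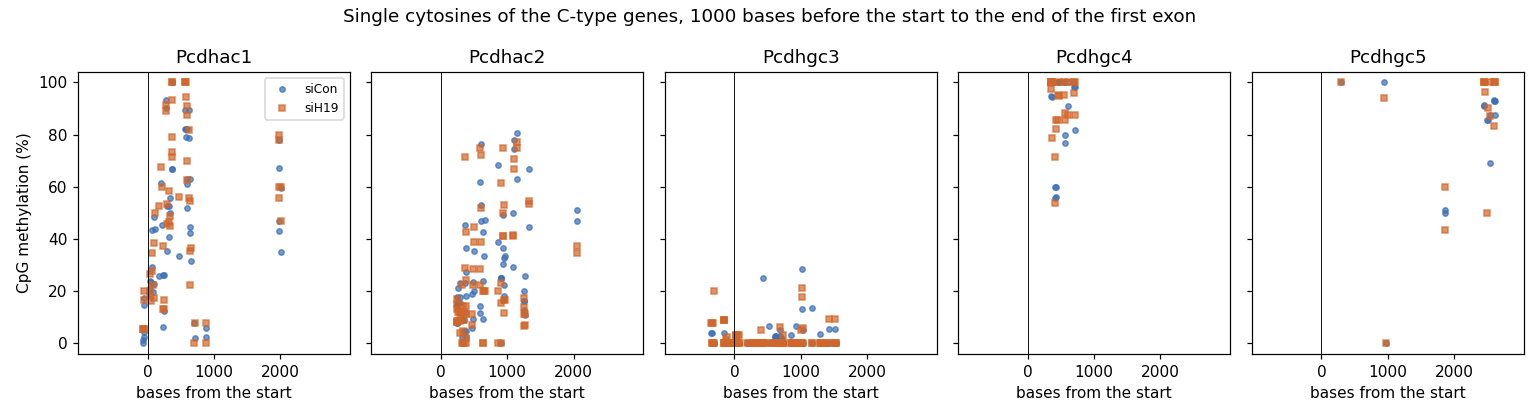
Methylation (%) of single cytosines in the 5 C-type genes against distance in bases from the transcription start, in siCon (circles) and siH19 (squares). Pcdhgc3 had 86 of 123 cytosines at 0 in both libraries, Pcdhgc4 none below 53.7% in either library, and Pcdhac1 and Pcdhac2 were lower near the start than further in.

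Within the alpha cluster, promoter levels of 6 alternate genes could be read. Pcdha9 was the lowest in siCon, at 33.3%, and was at 51% in siH19. Pcdha3 was at 37.5% and 40.7% and Pcdha10 at 51.9% and 50.4%. Pcdha12 was at 63.0% and 50.1%, Pcdha11 at 73.8% and 65.0% and Pcdha8 at 77.1% and 77.0%. These windows held 6 to 11 cytosines each. All but 1 of the 53 cytosines in alpha alternate promoter windows lay after the start, and the exception, in Pcdha8, was at 50% and 38.5%. First exons of alpha alternate genes ran from 42.0% in Pcdha10 to 79.8% in Pcdha8. The SDs across cytosines were 15 to 34.9 points in siCon, so that most neighbours in this order overlapped. Pcdha5 and Pcdha6 had no covered cytosine in either region.

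The beta genes showed a low level around the start and a higher level further inside the first exon. Averaged over their cytosines, they stood at 17.8% in siCon and 22.5% in siH19 in the 500 bases before the start, at 21.4% and 22.4% in the first 500 after it and at 17.4% and 19.9% in the next 500. Between 1000 and 1500 bases after the start the level was 61.8% and 58.5% over 60 cytosines, between 1500 and 2000 it was 65.2% and 64.6% over 133, and between 2000 and 2500 it was 76.7% and 76.0% over 50. Different genes filled different bins, so levels were also compared within each gene, a comparison chosen after the profile was seen. All 10 beta genes with a cytosine in both parts were higher between 1000 and 2500 bases after the start than within 1000 bases of it, in both libraries. The median gain was 41.3 points in siCon and 33.7 points in siH19. In siCon the part near the start ranged from 0 to 42.4% and the inner part from 22.3% to 84.3%. The part near the start was thin, with 1 to 14 cytosines a gene, and with restriction-site cytosines kept the beta promoter windows went from 20.3% to 43.1% in siCon. All 6 genes with at least 3 cytosines in each part were higher inside, and with restriction-site cytosines kept 11 of 13 genes were. Of 211 other protein-coding genes with a first exon of at least 2300 bases, 72.0% were higher inside in siCon, with a median gain of 13.4 points.

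**Figure D3:**
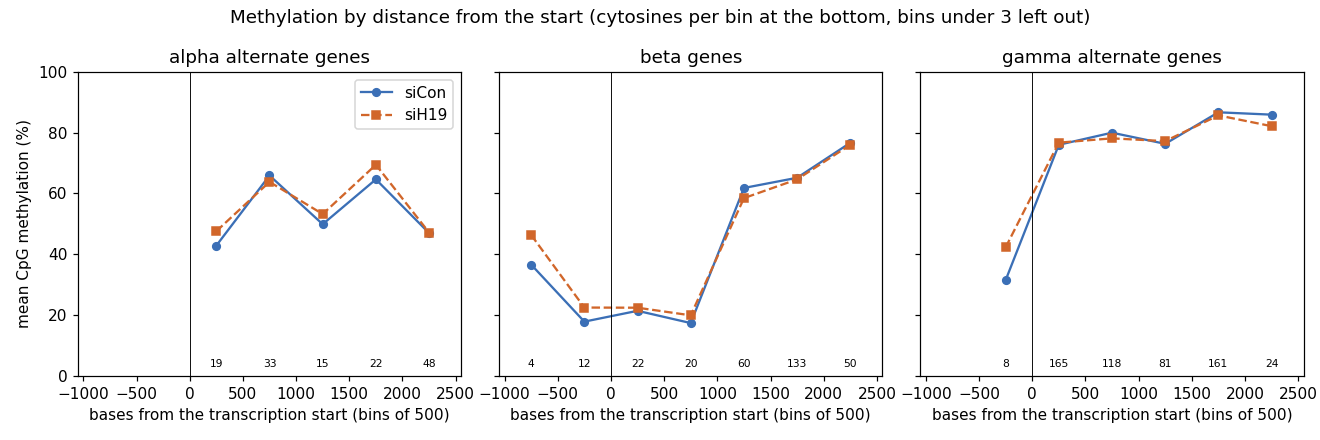
Mean CpG methylation (%) of the alternate genes of each cluster in bins of 500 bases from the transcription start, in siCon (solid) and siH19 (dashed), with the number of cytosines per bin at the bottom. The beta level in siCon was 17.4% in the bin before 1000 bases and 61.8% in the bin after it, gamma genes were at 76.0% or more in every bin after the start, and the bin before it held 8 cytosines of 1 gamma gene.

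The step was seen in single beta genes. Pcdhb7 was at 1.67% in siCon and 1.47% in siH19 near the start over 4 cytosines, and at 44.2% and 35.8% inside over 12. Pcdhb13 was at 29.4% and 38.9% near the start over 10 cytosines and at 71.8% and 76.5% inside over 8. Pcdhb22 was at 42.4% and 54.9% over 5 cytosines and at 74.8% and 76.1% over 40. Of these 5, however, 4 lay 500 to 1000 bases before its start, inside the first exon of Pcdhb21, at 36.6% and 46.4%. Pcdhb5 was the lowest of the 5 beta promoters that could be tested, at 3.52% and 2.83%. The others in order were Pcdhb2 at 13.6% and 8.89%, Pcdhb13, Pcdhb1 at 30.2% and 32.0%, and Pcdhb22. In the other clusters the direction was mixed. Of the alpha alternate genes 3 of 5 were higher inside in siCon, as were 8 of 15 gamma alternate genes.

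**Figure D4:**
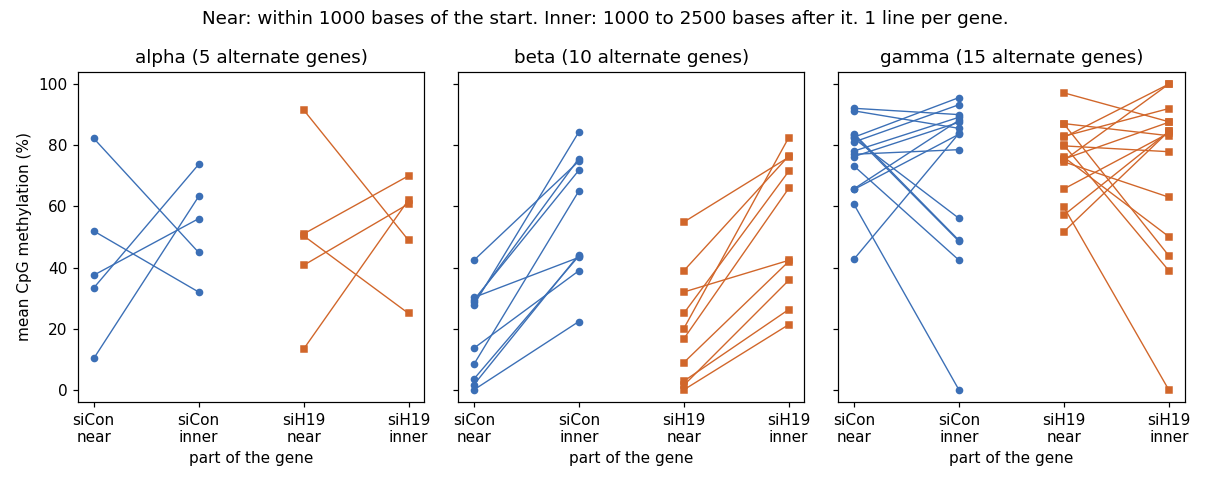
Mean CpG methylation (%) within 1000 bases of the start (near) and between 1000 and 2500 bases after it (inner), with 1 line per alternate gene and library. All 10 beta genes were higher at the inner end in both libraries, as were 3 of 5 alpha and 8 of 15 gamma genes in siCon; the gamma line that ended at 0 rests on 1 cytosine of Pcdhga10.

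The inner level of the beta genes also differed between the earlier and the later genes of the cluster. Inside neither part did this level rise steadily from gene to gene. Among 18 beta genes with at least 3 cytosines between 1000 and 2500 bases after the start, the 9 from Pcdhb1 to Pcdhb11 had a median of 43.3% in siCon and 35.8% in siH19, with a range of 20.9% to 64.3% in siCon. The 9 from Pcdhb13 to Pcdhb22 had a median of 75.6% and 76.5%, with a range of 58.2% to 92.3% in siCon. The lowest was Pcdhb11 at 20.9% and the highest Pcdhb21 at 92.3%. Across these 18 genes, level and order had a Pearson correlation of 0.709 and a Spearman correlation of 0.734 in siCon. For whole first exons of 16 beta genes the values were 0.761 and 0.674, and in siH19 0.776 and 0.715. Genes that lie next to each other share sequence and surroundings, and no p is attached. In the 18 gamma alternate first exons the Pearson correlation with order was 0.302 in siCon and 0.255 in siH19, and in the 8 of alpha it was 0.257 and -0.0844. Beta first-exon level and CpG density had a Pearson correlation of -0.308.

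Among gamma alternate genes, promoter levels of 14 could be read, and 13 were at 50% or more. The exception was Pcdhgb1, at 42.7% in siCon and 51.7% in siH19 over 10 cytosines. Pcdhga10 was next at 60.7% and 59.8% over 21 cytosines. Pcdhgb7 at 91.3% and 87.1% and Pcdhgb6 at 92.1% and 97.1% were the highest, over 8 and 5 cytosines. The cluster interleaves genes of an A and a B subfamily. First exons of 11 Pcdhga genes had a median of 77.7% in siCon and 77.4% in siH19, with a range of 57.9% to 98.8% in siCon. Those of 7 Pcdhgb genes had a median of 86.3% and 82.6%, with a range of 73.0% to 90.5% in siCon, so that the ranges overlapped. The B genes had a median of 4.60 CpG per 100 bases and the A genes 3.18. Over the 18 first exons the Spearman correlation of level with CpG density was 0.690. Pcdhga11 was the 1 gamma alternate gene with cytosines before the start, and these 8 stood at 31.5% and 42.3%, below the 84.7% and 85.0% of its first exon.

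The region just before the start, where most promoters are known to carry a conserved element containing CGCT, was nearly out of reach of the assay. CGCT on either strand occurred within 300 bases before the start in 56 of 58 protocadherin genes, or 96.6%, and in 46.6% of 55413 genes. A match of these letters is a description and not evidence of a bound site. A cytosine that could be compared lay within those 300 bases in 10 of the genes. CpG cytosines inside CGCT were covered in 5 genes. In Pcdhgc3 there were 8, at 0 in siCon and 1.30% in siH19. In Pcdhac1 there were 2, at 3.39% and 5.51%, and in Pcdhga11 2, at 24.7% and 34.1%. Pcdhb1 and Pcdhb6 had 1 each, at 16.7% and 15.4% and at 0 and 20%. The 20% of Pcdhb6 in siH19 rested on 5 reads, the minimum. High first-exon levels therefore stood beside unread sequence before the start in most alternate genes.

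Of the constant exons, those shared by isoforms of a cluster, only the first of the alpha cluster could be compared. It lies at chr18:37156155-37156213 and had 4 cytosines with 136 reads in siCon and 78 in siH19. The mean level was 28.6% and 29.2%. At the same cytosines the difference was 12.9 points with a 95% interval of -0.844 to 26.7. The strands did not move together. The plus-strand cytosines went from 30.4% to 0 and from 26.1% to 16.7% with 6 reads each in siH19, while both minus-strand cytosines went from 28.9% to 50%. The other 5 constant exons had no cytosine that passed. Between the members, outside first exons and promoter windows, the alpha cluster stood at 51% and 53.2% over 60 cytosines, the beta cluster at 45.6% and 50.5% over 32 and the gamma cluster at 63.6% and 62.3% over 38.

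The second question was whether methylation of these genes differed after knockdown of H19. No protocadherin promoter or first exon passed the test. Regions were compared by a Cochran-Mantel-Haenszel test with each cytosine as a stratum, and a call needed an adjusted p under 0.05 together with 10 or more percentage points of difference. By this test 0 of 29 promoters were called, with 5 at an unadjusted p under 0.05, and 0 of 47 first exons, with 4 at an unadjusted p under 0.05. Among all promoters 0.644% were called and 21.4% had an unadjusted p under 0.05, and among all first exons 0.815% and 19.8%. Without the minimum difference the count of members was also 0 in each region, against 7.55% of all promoters and 6.36% of all first exons. The unadjusted shares of the members, 5 of 29 and 4 of 47, were not above these. A quasi-binomial test with cytosines as units gave an adjusted p under 0.05 in 0 promoters and 0 first exons of the members. Over the genome it did so in 301 of 19572 promoters and 524 of 13136 first exons. At an unadjusted p under 0.05 of this test the members also had 0 in each region, and the share over the genome is not given. The test counted spread between the cytosines of a region as noise and did not pair a cytosine across libraries. Regions with wide spread could thus hardly pass, and no conclusion is drawn from these counts. Differences were of both signs, with 16 promoters higher and 13 lower in siH19, and 22 first exons higher and 25 lower. Their medians were 0.372 and -0.102 points, beside 0.0928 and 0.0707 points over all promoters and all first exons.

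Over whole clusters the differences were within a few points of 0. For first exons the difference of siH19 from siCon at the same cytosines was 1.61 points in alpha alternate genes (95% interval -0.495 to 3.72), -0.552 points in beta genes (-1.80 to 0.697) and -0.646 points in gamma alternate genes (-1.57 to 0.276). For promoters it was 2.44 points (-1.56 to 6.45), 1.55 points (-1.63 to 4.72) and 0.205 points (-1.12 to 1.53). Each of these intervals held 0, and each covers the counting of reads only. With the C-type genes included, the alpha cluster differed by 1.52 points in first exons (0.0846 to 2.95) and by 2.11 points in promoters (0.322 to 3.90), and neither interval held 0. At Pcdhgc3 the difference was 0.372 points in the promoter (-0.0693 to 0.813), which became -0.372 points with restriction-site cytosines kept, and -0.174 points in the first exon (-0.729 to 0.382).

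**Figure D5:**
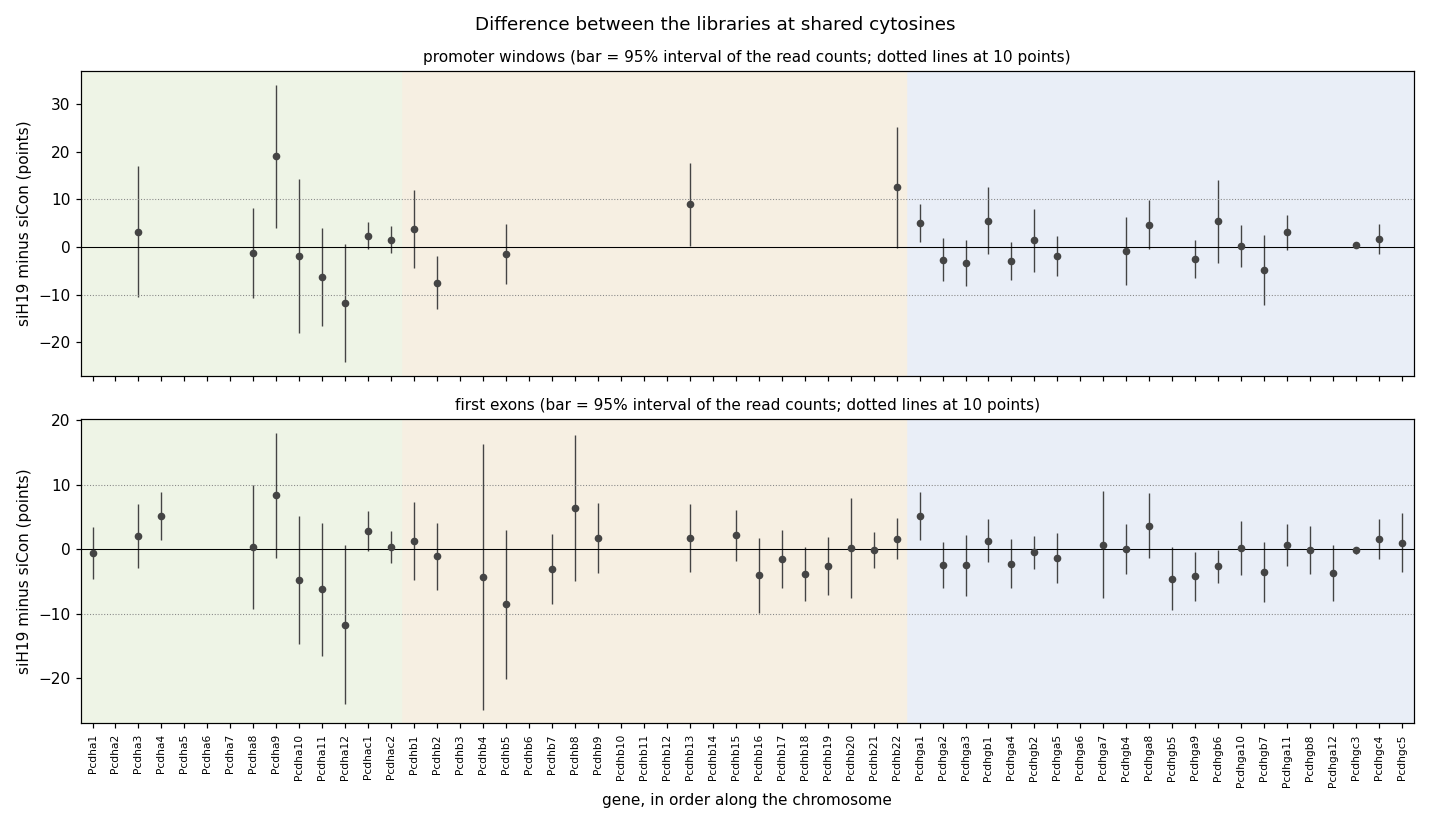
Difference in methylation, siH19 minus siCon in percentage points at the same cytosines, for promoter windows (top) and first exons (bottom) with at least 5 cytosines; bars are 95% intervals of the read counts. Points lay on both sides of 0 in every cluster, the widest intervals belonged to alpha and beta genes, and the largest rise was 19.0 points at the Pcdha9 promoter.

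The largest differences were found in the thinly covered alpha and beta genes. The Pcdha9 promoter went from 33.3% to 51% over 7 cytosines with 120 and 98 reads, a difference of 19.0 points (95% interval 4.01 to 34.1, adjusted p = 0.0766 by the Cochran-Mantel-Haenszel chi-square test). The Pcdhb2 promoter went from 13.6% to 8.89% over 8 cytosines with 193 and 314 reads, a difference of -7.44 points (-13.1 to -1.81, adjusted p = 0.0675 by the same chi-square test). Pcdha12, whose covered cytosines all lay in both its promoter window and its first exon, went from 63.0% to 50.1%, a difference of -11.7 points (-24.1 to 0.616). The Pcdhb22 promoter differed by 12.5 points (-0.278 to 25.3), and 4 of its 5 cytosines lay in the first exon of Pcdhb21. With restriction-site cytosines kept, the differences were 12 points at Pcdha9, -3.02 at Pcdhb2, -11.8 at Pcdha12 and 5.77 at Pcdhb22. With reads summed they were 17.2, -6.35, -18.2 and 6.15 points in the same order. In the gamma cluster the extremes were smaller, 5.56 points at the Pcdhgb1 promoter (-1.44 to 12.6), which turned to -3.49 points when reads were summed, and -4.80 points at the Pcdhgb7 promoter (-12.2 to 2.62).

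The largest rise was smaller in first exons than in promoters, while the largest fall, at Pcdha12, rested on the same cytosines. The Pcdha9 first exon differed by 8.36 points (-1.41 to 18.1), that of Pcdhb8 by 6.36 (-4.95 to 17.7) and that of Pcdhga1 by 5.16 (1.39 to 8.94, adjusted p = 0.0829 by the chi-square test). In the other direction Pcdha12 differed by -11.7 points (-24.1 to 0.616), Pcdhb5 by -8.51 (-20.1 to 3.05) and Pcdhgb5 by -4.54 (-9.39 to 0.307). With reads summed, the first exons of Pcdha9, Pcdhb8 and Pcdhga1 differed by 0.909, 7.42 and 8.20 points. Those of Pcdhb5 and Pcdhgb5 differed by -1.52 and -8.28 points. With restriction-site cytosines kept, the differences were 6.34 points at Pcdha9, 7.92 at Pcdhb8 and 2.28 at Pcdhga1. They were -7.93 points at Pcdhb5 and -0.495 at Pcdhgb5. Fisher's exact test on reads summed over a region gave adjusted p under 0.05 in 4 of 29 promoters and 7 of 47 first exons, against 16.9% of all promoters and 9.77% of all first exons. With a summed difference of at least 10 points it called 0 promoters, against 2.5% of all, and 2 first exons, Pcdha4 and Pcdhgb8, against 1.77% of all. Summed reads of Pcdha4 went from 44.1% to 55.3% and those of Pcdhgb8 from 73.1% to 87.5%. At the same cytosines, however, Pcdha4 differed by 5.19 points (1.47 to 8.92, adjusted p = 0.0740 by the chi-square test) and Pcdhgb8 by -0.102 points (-3.75 to 3.55). In Pcdhgb8 the reads were distributed differently over its cytosines in the libraries, and the summed value moved while the cytosines' own levels, 74.7% and 77.0% on average, did not pass the test.

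Taken over all members, the shares of changed cytosines were close to those of the genome, but they varied between the clusters. A cytosine was strongly changed at a Fisher's exact p under 0.05 and a difference of at least 33 points. This held for 13 of 1307 protocadherin cytosines, or 0.995%, against 0.987% of all cytosines, with 7 higher and 6 lower in siH19. At an unadjusted p under 0.05 there were 39, or 2.98%, against 2.53% of all. None had an adjusted p under 0.05, which 0.00648% of all cytosines reached. The 13 comprised 5 cytosines in alpha, or 1.82%, 3 in beta, or 0.990%, and 5 in gamma, or 0.686%. All were in first exons, and several of them, within 1000 bases of the start, also lay in promoter windows. At an unadjusted p under 0.05 there were 20 of 303 in beta, or 6.60%, 11 of 275 in alpha and 8 of 729 in gamma, or 1.10%. The 20 in beta lay in 14 genes, with 10 higher and 10 lower in siH19. Whether the clusters differed from each other or from the genome in these shares was not tested, and neighbouring cytosines share reads.

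Some of these cytosines had neighbours that moved with them and others did not. In the first exon of Pcdhb5, the plus-strand cytosine at chr18:37322171 had 8 of 8 reads methylated in siCon and 6 of 24 in siH19 (two-sided Fisher's exact p = 0.000286), and its minus-strand partner went from 50% to 20%. The plus-strand cytosine at chr18:37322155 in the same exon moved the other way, from 0 to 50%, with 8 and 24 reads. Its minus-strand partner went from 25% to 10%. In Pcdhgb1 the cytosine at chr18:37682242 went from 83.3% to 11.1%, with 6 and 18 reads, and its surroundings occur more than once in the clusters. In Pcdhga7 the cytosine at chr18:37716479 went from 0 to 69.2%, with 6 and 26 reads, whereas its partner on the other strand was at 57.1% and 61.9%. In Pcdhac2 the minus-strand cytosine at chr18:37144446 went from 30.6% to 75.0% and its partner from 49.1% to 41.2%, while the cytosine at chr18:37144440 on the same strand also rose, from 16.7% to 50%. Both were read by 36 and 12 reads. In Pcdhga3 the minus-strand cytosines at chr18:37675079 and chr18:37675091 each went from 100% to 40%, the siCon reads numbering 8 and 7 and those of siH19 5 each. The surroundings of the first recur in the clusters. In Pcdha10 the cytosine at chr18:37006826 went from 82.1% to 37.5%, with 28 and 8 reads, and its surroundings also recur in the clusters.

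Spread within a library was read from the opposite strands of each CpG. Both strands could be read at 526 protocadherin CpGs. Plus and minus cytosines differed at a Fisher's exact p under 0.05 at 13 of them in siCon, or 2.47%, and at 12 in siH19, or 2.28%, against 3.51% and 3.28% of all such CpGs. The libraries differed at 22 plus cytosines, or 4.18%, and at 9 minus cytosines, or 1.71%, against 2.55% and 2.52% of all such CpGs. The median absolute difference was 5.56 and 6.02 points between strands within a library, and 6.06 and 5.70 points between libraries on the plus and minus strands. The strands moved in the same direction between libraries at 180 CpGs and in opposite directions at 192. Over all such CpGs the counts were 213251 and 208291. The typical difference between libraries was thus close to that between strands, while the share past the threshold was above that of all CpGs on the plus strand and below it on the minus strand.

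Genes related to the clusters by sequence, position or regulation had low promoter levels in most cases. Of 6 neighbours on the chromosome, 5 were below 10%, among them Taf7, which lies between the beta and gamma clusters and codes for a subunit of the transcription factor TFIID, at 8.99% in siCon and 9.95% in siH19. The exception was Slc25a2, a mitochondrial carrier gene, at 91.4% and 92.6% over 7 cytosines. Hars and Hars2, which code for histidyl-tRNA synthetases, share the same window and count as 1 measurement. Of 12 protocadherins outside the clusters 10 could be tested, with a median of 10.7% and a range of 1.19% to 35.0% in siCon, and none was called. Their first exons with at least 5 cytosines stood in siCon at 2.79% in Pcdh1, 10.5% in Pcdh7 and 15.2% in Pcdh18. Levels there were 23.1% in Pcdh11x, 31.2% in Pcdh17, 31.4% in Pcdh10, 37.3% in Pcdh19 and 45.0% in Pcdh8. Pcdh12 was at 95.4% over 8 cytosines. Of 16 genes known to regulate the clusters 15 could be tested, among them Ctcf at 0.803% and 0.698% and Dnmt3b, which codes for a DNA methyltransferase, at 2.40% and 2.10%. None was called, and 2 of 15 had an adjusted p under 0.05 with differences under 10 points, both higher in siH19, against 7.55% of all promoters. These were the cohesin genes Rad21, at 0.364% and 0.885%, and Smc1a on the X chromosome, at 26.4% and 33.3%.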

How the data were processed

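Reduced representation bisulfite sequencing enriches CpG-rich ends of fragments cut by MspI and TaqI, here from 1 siCon and 1 siH19 library. According to the submitters' processing notes, base calls were made with bcl2fastq 1.8.4 and the build was mm10. Alignment by the authors used non-directional Bismark (version not given in the sources used here), and filled-in nucleotides were trimmed. Whether duplicate reads were removed is not given in the sources used here. The deposited files held, per CpG cytosine and strand, a text field with methylated and total read counts. A deposited score column, holding the methylated fraction scaled to whole numbers, matched the counts in 100% of entries. Counts were not normalised. No authors' comparison columns were used.

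All 6041258 positions on assembled chromosomes were CpG cytosines of GRCm38, and 3413804 had at least 5 reads in each library. Cytosines in CCGG or TCGA, where filled-in bases can be read, were left out, leaving 1850635. Of the protocadherin cytosines, 118 had exactly 5 reads in the shallower library, with means of 67.4% and 65.4%, and 71 outside the minimum had 4 reads, with means of 61.1% and 60.8%. Genes came from GENCODE vM21, with 1 transcript per gene, the one with the longest coding sequence. Of the 58 symbols 57 matched RefSeq, and a second entry named Pcdha11 is called Pcdha10 here after RefSeq. Coordinates are counted from 1.

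Cytosines were tested with Fisher's exact test, and promoters and first exons with at least 5 cytosines with the Cochran-Mantel-Haenszel test, both two-sided, with Benjamini-Hochberg adjustment over all cytosines, promoters or first exons of the genome. Differences are Mantel-Haenszel differences with 95% intervals. Reads that cover several cytosines are not independent, so p-values are too small. Alternatives were stricter read minimums, restriction sites kept, summed or single strands, repeats or repeated sequence left out, other gene starts, a window of 500 bases, read-weighted or unweighted differences, other thresholds and other tests. The tests were tried on simulated data. Named genes were the C-type genes, the 3 highest and 3 lowest promoters per cluster, the largest differences in each direction, and the strongly changed cytosines with the lowest p; others were named after their values were seen. Members and lists were chosen with earlier results of these data known. No sequence is printed. Python 3.11.15, numpy 2.4.6, pandas 2.3.3, scipy 1.17.1, pysam 0.24.0 and numba 0.67.0 were used.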

Additional observations from a re-analysis of the deposited data

How the results depend on the processing

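No paired analysis was possible because each group had 1 library. Levels in siCon depended on which cytosines entered. With at least 10 reads in each library, gamma alternate promoters were at 74.3%, beta first exons at 61.8%, gamma alternate first exons at 79.6%, and 6 cytosines of 942 were strongly changed, or 0.637% against 0.773% of all. With at least 20 reads, alpha alternate promoters were at 78.3% with a difference of 6.61 points and beta promoters at 23.2% with -5.02 points, both over 6 cytosines, gamma alternate promoters at 73.0%, alpha alternate first exons at 51.2% and beta first exons at 67.0%. With restriction-site cytosines kept, alpha, beta and gamma promoters were at 62.4%, 43.1% and 78.0%, alpha and beta first exons at 59.0% and 62.0%, the Pcdhgc3 first exon at 11.6%, and 21 cytosines of 1967 were strongly changed, or 1.07% against 1.42% of all. With strands summed, alpha alternate promoters were at 51%, beta first exons at 56.4% and gamma alternate first exons at 79.7%. On the plus strand alone, alpha and beta promoters were at 47.9% and 23.2% and alpha and gamma first exons at 50.1% and 79.8%. On the minus strand alone, alpha promoters were at 79.2% with a difference of -2.52 points, beta promoters at 16.8%, and alpha and gamma first exons at 62.1% and 81.4%. Without cytosines whose 51-base surroundings recur in the clusters, alpha promoters were at 51.7%, beta first exons at 57.9% and gamma first exons at 79.7%. In a window of 500 bases either side, alpha and gamma promoters were at 43.5% and 74.0%. Weighted by reads, alpha and gamma promoters were at 62.6% and 75.2%, gamma first exons at 79.1%, and alpha first exons differed by 4.46 points. At p under 0.01 and 50 points 3 cytosines were strongly changed, or 0.230% against 0.155% of all, and at an adjusted p under 0.05 there were 0. Fisher's exact test on summed reads called 2 first exons, against 1.77% of all, and at 1 of them, Pcdhgb8, the summed difference of 14.5 points stood against -0.102 points at the same cytosines. The causes of these shifts were not tested, beyond the fewer or other cytosines that each choice leaves. The higher inner level of beta genes, with alternatives chosen after the data were seen, held in 3 of 3 to 10 of 10 genes, and in 11 of 13 with restriction-site cytosines kept. Coverage was thinnest in alpha alternate promoters, with 53 cytosines in 12 genes, and in beta promoters, with 58 in 22 genes.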
